A study of Danio rerio with 28 samples.

Results

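The interferon-stimulated genes described here are 35 names of antiviral effectors, nucleic acid sensors, transcription factors and regulators. Of these names 34 were found, ignoring case and a final paralog letter, and they matched 34 of the 32520 gene IDs of the count table. The name irf2 had no match. RNA came from 100 mpeg1+ cells per library, sorted from the brains of TgBAC(ccl34b.1:eGFP);Tg(mpeg1:DsRedx) zebrafish and amplified by Smart-seq2, a full-length method for very small samples. The ccl34b.1 promoter region drove the green reporter, the mpeg1 promoter the red one, and all groups carried both. The labels call the cells microglia, the macrophages of the brain. Markers did not bear this name out for ccl34b.1- cells, where microglia markers were low and several single dendritic markers higher, as given below with the gates.

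In the injection experiment the fish were 6 months old. It held 3 E. coli injected, 4 PBS injected and 2 control fish, the last with no treatment given, and each gave a ccl34b.1+ and a ccl34b.1- library. In a second experiment 5 untreated fish aged 4 months gave both libraries. Depth per library ran between 2.24 and 9.69 M counts in the injection experiment, and untreated libraries were deeper, at 14.2 to 30.4 M counts. The gate gene ccl34b.1 stood at 551 to 1537 CPM (a gene's reads scaled to 1 common library total) in ccl34b.1+ and 13 to 154 CPM in ccl34b.1- libraries of E. coli fish, so the order of the gates was kept there. In PBS fish it was 3964 to 6250 CPM in ccl34b.1+ and 36.8 to 140 CPM in ccl34b.1- libraries.

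Interferons are cytokines released when a cell detects foreign nucleic acids or other microbial products. They act through JAK kinases and transcription factors of the STAT and IRF families that switch on a large set of antiviral genes. Macrophages, microglia among them, both make interferons and respond to them. Roles named below are those known in human and mouse, except for pkz, a kinase found in fish. No sequence of these genes was used here.

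Of the 34 IDs, 5 had no count in any library: RSAD2 (viperin, an antiviral enzyme), CMPK2 (a mitochondrial nucleotide kinase) and the RNA-binding ifit8, ifit10 and ifit15. Another 4 (mxb, ifit9, ifit14 and gbp4) had too few counts to be tested in the injection experiment, which left 25 tested there. In untreated fish 16 passed the same filter. Summed over all members, levels were 6148 to 7821 CPM in ccl34b.1+ cells of E. coli fish, 544 to 1500 CPM in those of PBS fish and 820 to 863 CPM in those of control fish. In ccl34b.1- cells the sums were 2553 to 5356 CPM in E. coli fish, 527 to 808 CPM in PBS fish and 576 to 1328 CPM in control fish. Untreated fish had 711 to 2025 CPM in ccl34b.1+ and 464 to 1671 CPM in ccl34b.1- cells. Most of the E. coli sum in ccl34b.1+ cells was mx reads, at 5372 to 6971 CPM, against 28.1 to 95.7 CPM in PBS fish. Without the mx genes the ccl34b.1+ sums were 592 to 849 CPM in E. coli fish and lay within the 495 to 1456 CPM of PBS fish. In ccl34b.1- cells the sums without the mx genes were 719.99 to 2608 CPM in E. coli fish. They lay wholly above the 503 to 699.5 CPM of PBS fish and overlapped the 479.6 to 1102 CPM of control fish. IRF7 alone made 1559, 330 and 1279 CPM of these E. coli sums, against 21.3 to 208 CPM in PBS fish. The gap to PBS fish is therefore not read as a rise of the other members as a set.

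**Figure D1:**
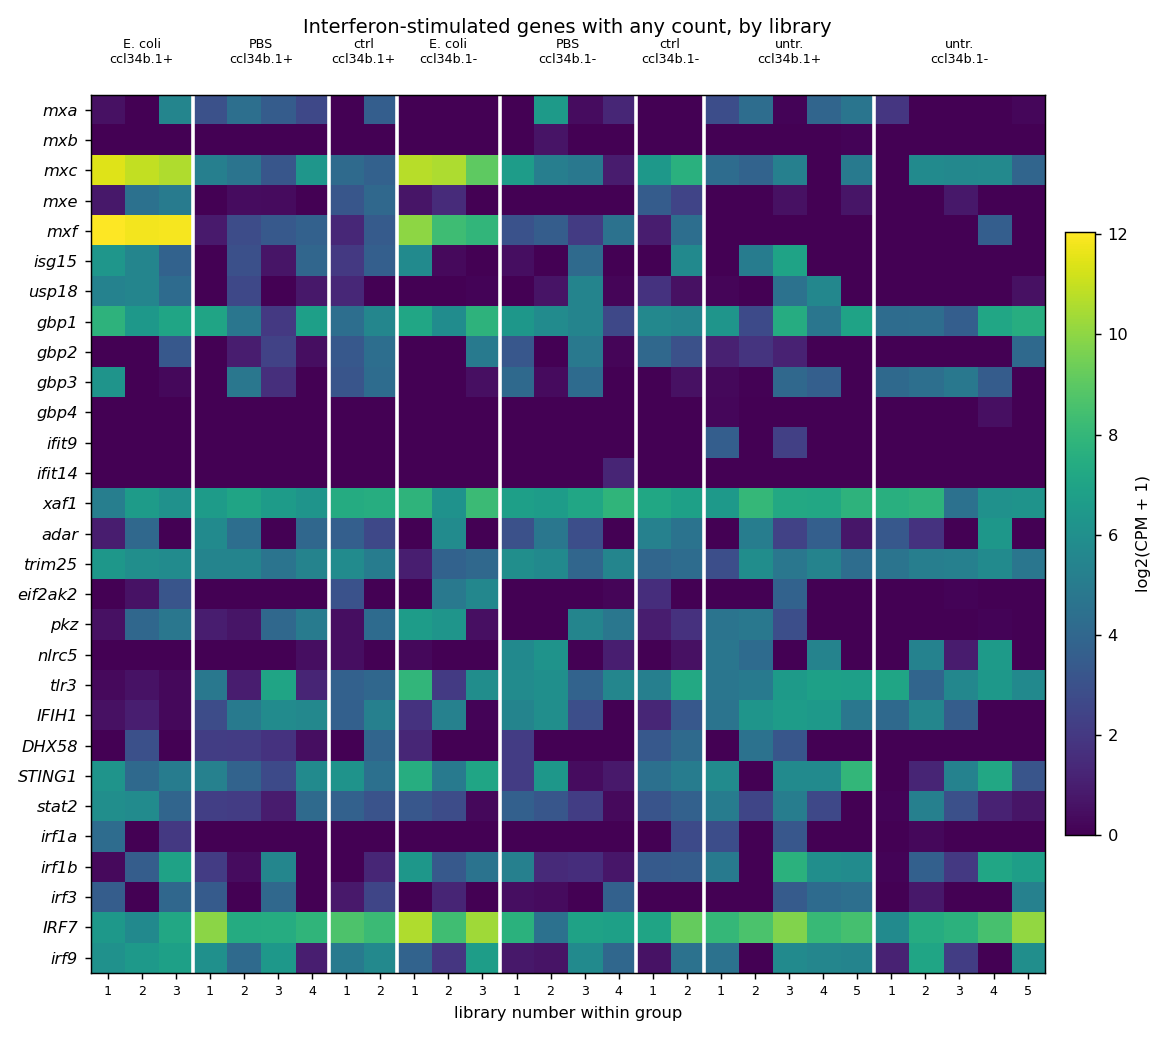
Levels of the 29 gene IDs with any count, in log2(CPM + 1), with 1 column per library and white lines between the 8 groups (untr., untreated). The mxf and mxc rows are brightest in the libraries of E. coli fish.

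E. coli was compared with PBS within each gate, which asks how each cell population changed after bacterial injection beyond the injection itself. In ccl34b.1+ cells 2 members were higher, the Mx genes mxf and mxc, and 1 was lower, the RNA sensor tlr3. The edgeR quasi-likelihood test with Benjamini-Hochberg adjustment over 12421 genes called 0.7% of all genes higher, 0.813% lower and 1.51% in either direction. The median fitted log2 change was 1.09 over the 25 members tested and -0.185 over all genes tested. In these bulk samples, fewer cells of a type and less RNA per cell cannot be told apart.

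The mx genes encode dynamin-like GTPases that block virus replication. In ccl34b.1+ cells mxf (ENSDARG00000026049) had 4212, 3609 and 3734 CPM in E. coli fish, against 0.814, 5.95, 9.15 and 12.4 CPM in PBS fish. Every E. coli library lay far above every PBS library, and above the 1.52 and 10.1 CPM of control fish. The means were 3852 ± 318 CPM after E. coli and 7.07 ± 4.92 CPM after PBS (SD, n = 3 and 4). The fitted log2 change was 9.10 ± 1.25 (SE; edgeR adjusted p = 0.001036), a 549-fold higher level. It stayed past the threshold without any 1 library (7 of 7 fits).

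For mxc (ENSDARG00000024789), E. coli fish had 2758, 1962 and 1563 CPM in ccl34b.1+ cells, against 35.8, 23.5, 8.27 and 78.2 CPM in PBS fish. The groups did not overlap here either, and control fish had 16.7 and 12.2 CPM. The log2 change was 5.84 ± 1.11 (edgeR adjusted p = 0.0128). Leaving out PBS ccl34b.1+ library 1 or 2 ended the call (adjusted p = 0.0625 and 0.0567), as did limma voom (adjusted p = 0.0658).

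The other mx genes were sparse. mxe had 0.694, 21.6 and 31.1 CPM in ccl34b.1+ cells of E. coli fish, at most 0.313 CPM in PBS fish, and 8.35 and 15.8 CPM in control fish (E. coli against PBS, log2 change 6.65 ± 2.66, adjusted p = 0.27, not past the threshold). The E. coli libraries lay above all PBS libraries but not above the controls. mxa did not separate the groups, with 0.463, 0 and 43.2 CPM in E. coli fish and 5.15 to 20.0 CPM in PBS fish. mxb had reads in 1 untreated and 1 PBS library only.

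Reads of near-identical paralogs may be split between genes, and the authors' handling of such reads was not given in the sources used here, so the mx counts are uncertain as to the gene they belong to.

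**Figure D2:**
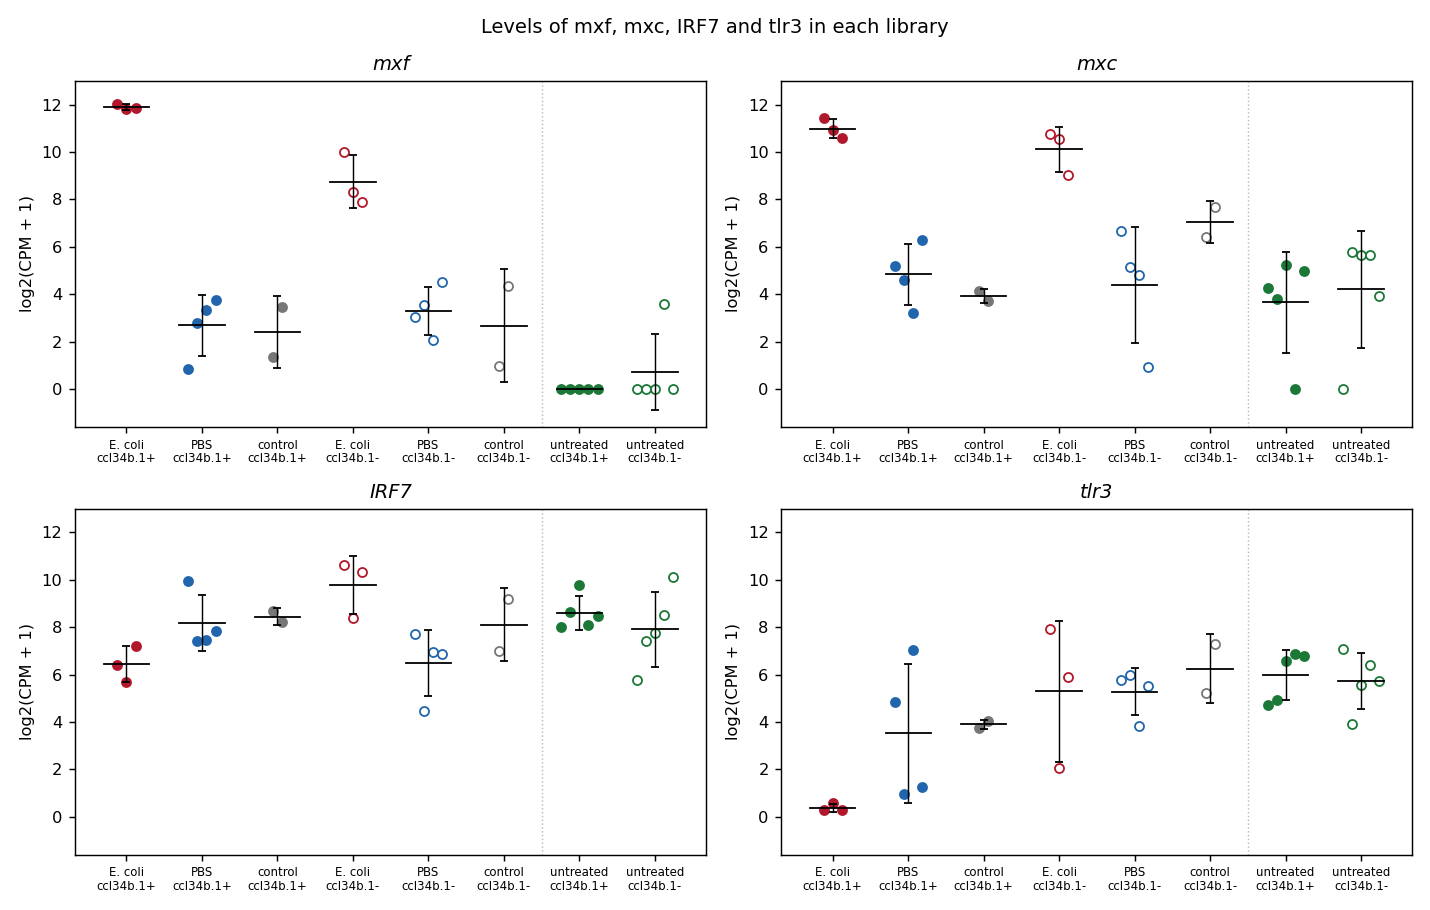
Levels of mxf, mxc, IRF7 and tlr3 in log2(CPM + 1), with 1 point per library, filled for ccl34b.1+ and open for ccl34b.1- cells; bars are mean and SD, and the dotted line parts the 2 experiments. The 3 E. coli libraries of each gate stand above all PBS libraries for mxf and mxc, while IRF7 lies below PBS in ccl34b.1+ cells and above it in ccl34b.1- cells.

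The remaining effectors in ccl34b.1+ cells did not pass the threshold. isg15, a ubiquitin-like protein that is attached to others, had 78.6, 44.0 and 12.8 CPM in E. coli fish and 0 to 14.8 CPM in PBS fish (adjusted p = 0.59). gbp1, a guanylate-binding GTPase, had 83.8 to 223 CPM in E. coli fish and 2.95 to 129 CPM in PBS fish (log2 change 1.14 ± 0.93, adjusted p = 0.642). xaf1, a promoter of apoptosis, had 34 to 97.9 CPM in E. coli fish and 75.1 to 128 CPM in PBS fish (adjusted p = 0.78). Ranges of all 3 genes overlapped. gbp2, gbp3, adar (an RNA-editing enzyme), pkz and eif2ak2 (PKR, a kinase that stops translation) were at or near 0 in some library of each E. coli or PBS group, and none passed.

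Among regulators, usp18, which removes isg15 and restrains interferon receptor signalling, had 39.3, 43.3 and 17.2 CPM in ccl34b.1+ cells of E. coli fish, against 0, 5.01, 0 and 0.686 CPM in PBS fish. trim25, a ubiquitin ligase of RNA sensing, had 82.1, 61.5 and 54.2 CPM in E. coli fish, against 42.5, 42.6, 24.2 and 41.2 CPM in PBS fish. Neither gene's groups overlapped, yet neither passed (log2 change 4.53 ± 2.46, adjusted p = 0.357 for usp18 and 0.81 ± 1.14, adjusted p = 0.884 for trim25). With mxc, mxe and mxf they made 5 members whose E. coli libraries all lay above PBS, where 6.1% of all genes tested did so. For mxe this rested on 3 reads in E. coli library 1, against at most 1 read in a PBS library. The lower side held 3 members (tlr3, IFIH1 and IRF7), where 6.93% of all genes did so.

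Of the sensors, tlr3, an endosomal receptor for double-stranded RNA, had 0.231, 0.492 and 0.213 CPM in ccl34b.1+ cells of E. coli fish, or 4 reads in all. PBS fish had 27.35, 0.94, 129 and 1.37 CPM, and control fish 12.5 and 15.5 CPM. The groups did not overlap, but 2 PBS libraries were nearly as low as the E. coli ones. The log2 change was -6.87 ± 1.80 (edgeR adjusted p = 0.0407), and the call held in 2 of 7 fits that left out 1 library. It was lost without PBS ccl34b.1+ library 1 or 3 (adjusted p = 0.0546 and 0.225) and without any E. coli library (adjusted p 0.166 to 0.192). It was also lost with voom (adjusted p = 0.213) and against control fish (adjusted p = 0.176). With only these E. coli and PBS groups in the fit, 18 members passed the count filter, and tlr3 was not among them. The filter's rule depends on which groups are fitted, and tlr3 passed it in the fit of all 6 groups.

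IFIH1 (MDA5, a cytosolic sensor of double-stranded RNA) had 0.463, 0.983 and 0.213 CPM in ccl34b.1+ cells of E. coli fish, against 6.02, 30.4, 54.3 and 48.7 CPM in PBS fish. Its groups did not overlap, and its log2 change of -5.91 ± 2.35 did not pass (adjusted p = 0.266). DHX58 (LGP2, a partner of RNA sensors) was at 0 in 2 of the E. coli libraries. STING1, the adaptor of cytosolic DNA sensing, had 16.2 to 74.9 CPM in E. coli fish and 5.61 to 53.9 CPM in PBS fish (adjusted p = 0.976).

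Of the transcription factors, stat2, which carries the interferon signal to the nucleus, had 60.4, 54.3 and 14.0 CPM in E. coli fish and 0.886 to 16.8 CPM in PBS fish (adjusted p = 0.495). irf9 had 67.5 to 113 CPM in E. coli fish and 1.03 to 85.6 CPM in PBS fish (adjusted p = 0.861). For both, 1 PBS library reached into the range of the E. coli libraries. irf1a, irf1b and irf3, members of the same family as IRF7, did not pass either. nlrc5, a regulator of MHC class I genes, was at 0 in all E. coli libraries and had 0.343 CPM in 1 PBS library of this gate.

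IRF7, a driver of type I interferon genes that interferon itself induces, had 84.9, 51.1 and 147 CPM in ccl34b.1+ cells of E. coli fish, against 976, 171, 177 and 231 CPM in PBS fish and 415 and 293 CPM in control fish. All E. coli libraries lay below all others of the gate. The log2 change of -2.04 ± 0.73 did not pass (adjusted p = 0.226).

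**Figure D3:**
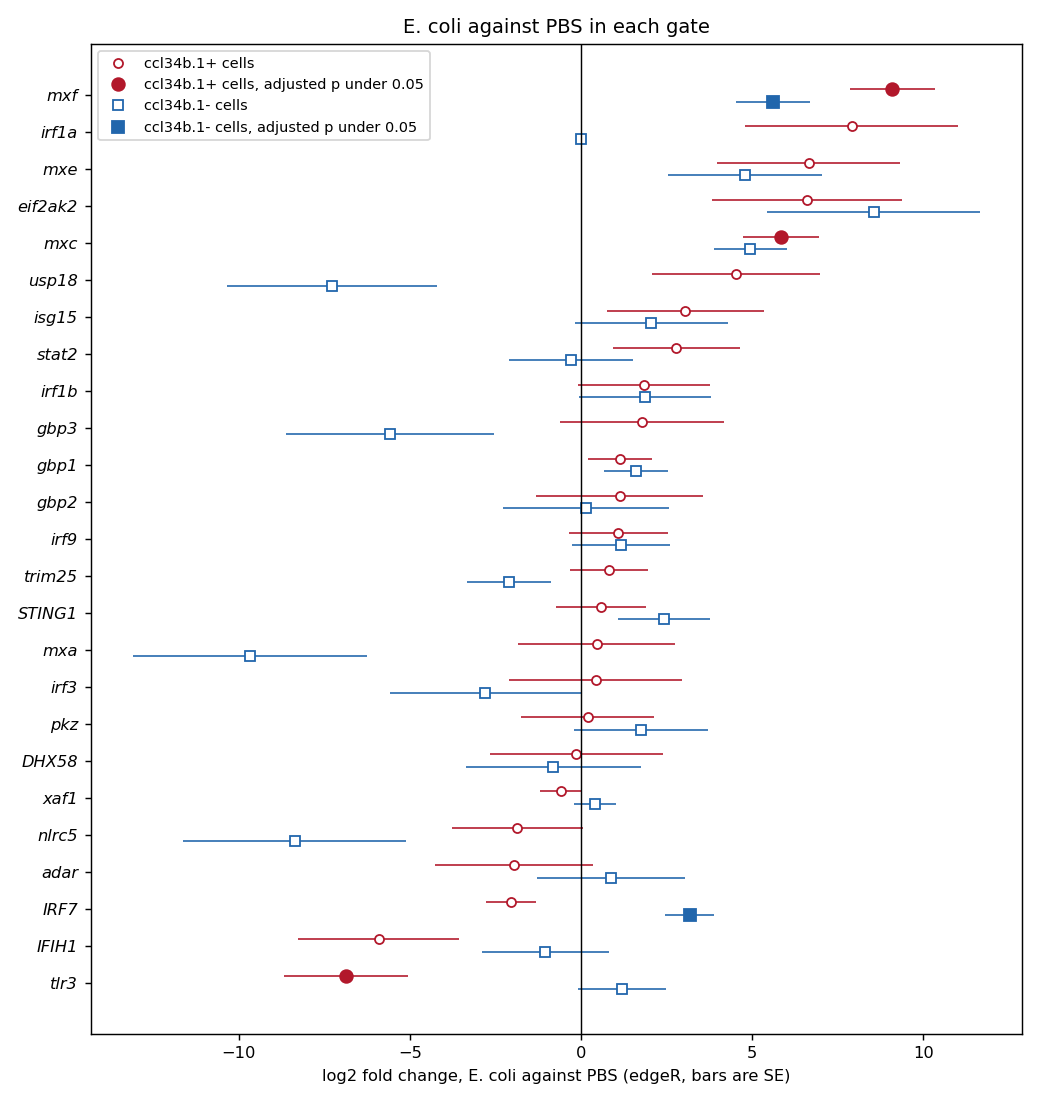
Fitted log2 fold changes of E. coli against PBS for the 25 members tested, ccl34b.1+ cells as circles and ccl34b.1- cells as squares, with SE as bars and filled marks for an adjusted p under 0.05. Filled marks stand at mxf in both gates, at mxc and tlr3 in ccl34b.1+ cells and at IRF7 in ccl34b.1- cells.

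In ccl34b.1- cells 2 members were higher after E. coli than after PBS, mxf and IRF7, and none was lower. Of all genes tested, 0.233% were called higher, 0.169% lower and 0.403% in either direction. The median fitted log2 change was 0.87 over the 25 members tested and -0.078 over all genes tested. Members whose E. coli libraries all lay above PBS were mxc, mxf and IRF7 (3.34% of all genes), and none lay wholly below (4.42% of all genes).

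mxf had 1032, 315 and 239 CPM in ccl34b.1- cells of E. coli fish, against 7.22, 10.7, 3.23 and 22.0 CPM in PBS fish and 0.979 and 19.6 CPM in control fish. The E. coli libraries again stood wholly above the rest. The log2 change was 5.6 ± 1.08 (edgeR adjusted p = 0.0416). The call held without E. coli library 3 (adjusted p = 0.037) and was lost without any other library (adjusted p 0.0569 to 0.151). It was also lost with voom (adjusted p = 0.0876) and against control fish (adjusted p = 0.219).

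mxc had 1715, 1516 and 523 CPM in ccl34b.1- cells of E. coli fish, against 101, 34.5, 26.8 and 0.903 CPM in PBS fish. Control fish had 85.1 and 202 CPM, still below the E. coli libraries. Its log2 change of 4.94 ± 1.07 missed the threshold (edgeR adjusted p = 0.0656), which it passed without PBS library 1 or 4 (adjusted p = 0.0444 and 0.00121). It also passed in 3 of 9 other settings: no low-count filter, a mean of at least 10 CPM, and DESeq2.

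IRF7 had 1559, 330 and 1279 CPM in ccl34b.1- cells of E. coli fish, against 208, 21.3, 123 and 115 CPM in PBS fish. E. coli lay wholly above PBS, but control fish, at 128 and 582 CPM, overlapped with it. The log2 change was 3.18 ± 0.71 (edgeR adjusted p = 0.0416), and it held without E. coli library 2 (adjusted p = 0.023) but not without any other library (adjusted p 0.0518 to 0.126). Against control fish the adjusted p was 0.415, and with voom 0.137. The edgeR call was also lost with size factors of DESeq2 (adjusted p = 0.0572), a mean of at least 10 CPM (0.0503) and the groups compared alone (0.142). It was kept in 3 of 9 other settings.

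Other members in ccl34b.1- cells did not pass. trim25 had 1.01, 12.8 and 15.6 CPM in E. coli fish and 14.9 to 60.2 CPM in PBS fish (log2 change -2.11 ± 1.23, adjusted p = 0.338). usp18 had 0.101 CPM in 1 E. coli library and 0 in the other 2. STING1 had 29.8 to 182 CPM in E. coli fish and 0.323 to 81.6 CPM in PBS fish (adjusted p = 0.304). tlr3 spanned 3.14 to 239 CPM in E. coli fish and 13.2 to 62.0 CPM in PBS fish (adjusted p = 0.693).

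The gates differed in the E. coli effect for 1 member, IRF7. Its interaction (the E. coli against PBS change in ccl34b.1+ cells minus that in ccl34b.1- cells) was -5.22 ± 1.04 on the log2 scale (edgeR adjusted p = 0.0264), where 0.145% of all genes were called in that direction, 0.129% in the other and 0.274% in either. The call held in 8 of 14 fits that left out a library. It was lost without E. coli ccl34b.1+ library 1 or 2 (adjusted p = 0.104 and 0.11), E. coli ccl34b.1- library 1 or 3 (0.0667 and 0.0806) or PBS ccl34b.1- library 3 or 4 (0.0631 and 0.065), and with voom (0.19). For mxf the interaction was 3.50 ± 1.38 (adjusted p = 0.284) and for tlr3 -8.07 ± 2.13 (adjusted p = 0.117), so neither gene was shown to respond differently in the gates. For mxc it was 0.90 ± 1.36 (adjusted p = 0.921).

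The balance of mxf and mxc reads within a library was set side by side in the gates of E. coli fish, a measure chosen after its values were seen. There were 1.53, 1.84 and 2.39 mxf reads per mxc read in ccl34b.1+ cells, against 0.602, 0.208 and 0.458 in ccl34b.1- cells. The ratios of the gates did not overlap. They were not tested, and the 2 genes were picked for this pattern.

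Markers of other cell types moved with the E. coli groups. In ccl34b.1+ cells the microglia list (counts for 9 of 9 IDs) summed to 5013 to 8911 CPM in E. coli fish and 49718 to 73897 CPM in PBS fish, and 3 of its 9 IDs tested were called lower (lgals3bp.1, apoeb and apoc1). The pan-macrophage list (13 of 16 IDs with counts in E. coli and 12 in PBS fish, with some IDs of MPEG1 and MFAP4 at 0) summed to 14644 to 19671 CPM in E. coli and 5043 to 6754 CPM in PBS fish. Its members went both ways: of 12 IDs tested, cd68 and 2 MFAP4 IDs were called higher, and LCP1 and MPEG1 lower. In the same order of groups, the dendritic list (10 and 11 of 11 IDs) held 5221 to 13778 and 35596 to 82654 CPM. Nearly all of this was cd74a and cd74b, the MHC class II invariant chains of antigen-presenting cells at large, the 2 of its 11 IDs called lower. The B cell list (5 and 5 of 8 IDs, cd79a at 0 in E. coli and cd79b in PBS fish) held 416 to 866 CPM in E. coli and 55.2 to 195 CPM in PBS fish. Of this, cd22 alone made 415 to 866 CPM in E. coli fish and 52.0 to 194.5 CPM in PBS fish. None of its 6 IDs tested was called, with a median log2 change of -0.064. Other dendritic IDs went both ways, and none of them was called. Of the XCR1 IDs, ENSDARG00000052988 was at 0 in E. coli fish and 0 to 0.343 CPM in PBS fish. ENSDARG00000054847 had 0.246 to 0.694 CPM in E. coli fish and 0.651 to 8.77 CPM in PBS fish. BATF3 had 10.8 to 53.8 CPM in E. coli fish and 0 to 11.7 CPM in PBS fish. ID2 had 86.7 to 179.5 and 55.2 to 96.8 CPM. These sums did not overlap between E. coli and PBS fish, nor did those of the T cell list (15.5 to 96.2 and 125 to 251 CPM; lck and ZAP70 at 0 in both), the radial glia list (328 to 449 and 1411 to 2217 CPM; GFAP at 0 in both) or the endothelium list (143 to 211 and 384 to 694 CPM; kdrl and cdh5 at 0 in both), lists in which no ID tested was called. MPEG1 (ENSDARG00000055290), whose promoter drove the sort reporter, had 212, 46.2 and 107 CPM in E. coli fish, against 1178, 399, 797 and 656 CPM in PBS fish.

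In ccl34b.1- cells the pan-macrophage list summed to 3119 to 5555 CPM in E. coli fish and 7670 to 8613 CPM in PBS fish, without overlap. Of its 12 IDs tested, LCP1 was called lower (log2 change -1.69 ± 0.31, edgeR adjusted p = 0.00603) and 0 higher. HEPACAM2 was called lower among the 11 dendritic IDs tested in this gate, and 0 were higher. There the neutrophil list, of 4 matched IDs, stood apart by library. It summed to 0.406, 1743 and 2220 CPM in E. coli libraries 1, 2 and 3, against at most 2.37 CPM in PBS and 6.85 CPM in control fish. Untreated ccl34b.1- libraries held 17.9 to 126 CPM of this list. MMP9 made most of the E. coli sums (1190 and 2170 CPM in libraries 2 and 3). mmp13a had 525 and 49.0 CPM in these libraries and was the 1 of 2 IDs tested that was called higher (log2 change 11.3 ± 2.38, edgeR adjusted p = 0.0181). npsn had 27.8 CPM in E. coli library 2 and 0.101 CPM in library 3, and 0 to 126 CPM in untreated ccl34b.1- libraries. lyz, a defining neutrophil gene, was at 0 in every library of the series, so it could not tell these libraries apart. Library 1 of E. coli fish, nearly free of these reads, had the highest mxf, mxc and IRF7 levels of its group. It also held the only reads of the NK cell marker list in its group (95.5 CPM, against 0 in libraries 2 and 3). All of these came from 1 of the 7 IDs, an EOMES ID. The markers nkl.2, nkl.3, nkl.4, prf1.9 and il2rb were at 0 in this group, so the reads do not show NK cells. A fit with library 1 as the lone E. coli ccl34b.1- library was chosen after the data were seen. It assumes that this library varies like the other groups. The main fit had a median log2 change of -0.078 over all genes tested in this gate. With library 1 alone that median was -1.91, and the log2 changes against PBS were 6.5 for mxf and 3.70 for IRF7. With 1 library, this fit cannot tell what part the neutrophil list reads had in the results. The part of these reads and of the other marker shifts was not tested.

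PBS was compared with control fish, which asks about injection alone. No member passed in either gate, nor did any of the 12421 genes (0.0% called in both gates). Without adjustment, p was under 0.05 for 2 members in ccl34b.1+ and 4 in ccl34b.1- cells, and for 628 and 642 of all genes. DESeq2 called 83 and 126 genes, none of them a member, and voom called 224 and 34 genes, with 1 member (mxe, lower in PBS ccl34b.1+ cells). PBS libraries all lay below control libraries for gbp2, mxe and xaf1 in ccl34b.1+ cells (10.1% of all genes) and for DHX58 and mxe in ccl34b.1- cells (6.56%), and for no member above them (4.46% of all genes in ccl34b.1+ and 3.34% in ccl34b.1- cells). mxe, as given above, had at most 0.313 CPM in ccl34b.1+ cells of PBS fish, against 8.35 and 15.8 CPM in control fish. In ccl34b.1- cells it was at 0 in all PBS libraries, against 10.3 and 4.56 CPM in control fish (edgeR adjusted p = 0.965 and 0.943 in the 2 gates).

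The gates were then compared within each treatment. In E. coli fish 2 members were lower in ccl34b.1+ than in ccl34b.1- cells (tlr3 and IRF7) and none was higher, where 1.43% of all genes were called lower, 0.886% higher and 2.31% in either direction. Libraries of the gates did not overlap for these 2, where 7.06% of all genes lay wholly lower, and for 4 members on the higher side (usp18, trim25, stat2 and mxf), where 8.12% did. Values of tlr3 in ccl34b.1+ cells are those above, against 239, 3.14 and 58.7 CPM in ccl34b.1- cells (log2 difference -8.21 ± 1.93, edgeR adjusted p = 0.0126). IRF7 differed by -3.49 ± 0.81 (adjusted p = 0.0152). Both calls were lost without E. coli ccl34b.1+ library 1 (adjusted p = 0.0718 for tlr3 and 0.112 for IRF7), ccl34b.1+ library 2 (0.0608 for tlr3 and 0.106 for IRF7) or ccl34b.1- library 1 (0.0664 for tlr3 and 0.0535 for IRF7), and both were kept without ccl34b.1- library 2. Without ccl34b.1+ library 3 the tlr3 call was lost (0.0786), and without ccl34b.1- library 3 that of IRF7 (0.0577). With voom the IRF7 call was lost (0.0566), and with the groups compared alone that of tlr3 (0.083). The gates of E. coli fish differed by 2.86 ± 1.07 for mxf on the log2 scale, which did not pass (adjusted p = 0.187).

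In PBS fish no member was called between the gates (edgeR; 2.69% of all genes in either direction, 1.21% higher and 1.48% lower). Without adjustment p was under 0.05 for 2 members, and DESeq2 called 1 and voom 0. No member was without overlap there (5.1% of all genes wholly higher, 4.81% wholly lower). IRF7 in PBS fish had a log2 difference of 1.73 ± 0.65 (adjusted p = 0.168). In control fish no member was called either (0.869% of all genes in either direction, 0.507% higher and 0.362% lower). There p was under 0.05 without adjustment for 1 member, and DESeq2 and voom called 0 each. Libraries of 2 against 2 control fish did not overlap for 6 members on the higher and 4 on the lower side, where 22.5% and 17.8% of all genes did so. The microglia list summed to 583 to 1518 CPM in ccl34b.1- and 49718 to 73897 CPM in ccl34b.1+ cells of PBS fish. Of 11 dendritic IDs tested in PBS fish, 7 were called higher in ccl34b.1- cells and 0 lower (ccl19a.1, siglec15l, BATF3, ID2, HEPACAM2, XCR1 and flt3). In E. coli fish 8 of 11 were, in control fish 7 of 11 and in untreated fish 4 of 10. The summed dendritic list overlapped between the gates of PBS fish, at 42619 to 63173 CPM in ccl34b.1- and 35596 to 82654 CPM in ccl34b.1+ cells.

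In untreated fish no member was called between the gates (edgeR, 0 of 16 tested), where 3.71% of 8658 genes were called, 2.1% higher and 1.61% lower. None of the 16 had an unadjusted p under 0.05, and DESeq2 and voom called none. None of them was without overlap either (5.16% of all genes wholly higher, 3.26% wholly lower). Without the low-count filter 28 members were tested in edgeR, 7 had an unadjusted p under 0.05 and 0 were called. With all 28 libraries in 1 fit, 3 of 26 members were called, and 782 of 14151 genes. mxf was at 0 in all 5 ccl34b.1+ libraries and in 4 of 5 ccl34b.1- libraries, with 11 CPM in library 4.

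Single untreated libraries that stood apart were found with Dixon's ratio, the gap of the highest library to the next over the range of the 5 libraries of its gate. It was set against its critical value at the 0.05 level for both sides together. In ccl34b.1+ cells 2 of 16 members had such a library, and 11.1% of all genes tested did. In ccl34b.1- cells 5 of 16 members did, and 24.5% of all genes tested. These counts of members are small and near the shares of all genes, so nothing is read from them. In PBS fish, with the critical value for 4 libraries, 5 of 25 members had a high library apart in ccl34b.1+ cells (24.6% of all genes) and 8 of 25 in ccl34b.1- cells (30.6% of all genes). On log2(CPM + 1) mxa and irf3, both in ccl34b.1- cells, kept a library far above the others. On that scale libraries far below the others appeared too, ccl34b.1+ library 2 for irf9 and STING1, ccl34b.1+ library 4 for mxc and ccl34b.1- library 5 for gbp3.

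IRF7 had 256, 395, 875, 273 and 359 CPM in the 5 ccl34b.1+ libraries, with library 3 apart, as it was for 2.4% of all genes tested. This library was also the highest for 8 of 16 members, where 20.0% of all genes tested had their highest value in it. Its summed level of 2025 CPM was the highest of the untreated libraries, and it was the deepest. isg15, not tested in untreated fish, had 125 CPM there and 32.3 CPM in library 2, and was at 0 in the other 3 ccl34b.1+ libraries.

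STING1 stood apart in both gates. It had 54.7, 0, 52.7, 53.4 and 249 CPM in ccl34b.1+ libraries, with library 5 high, and 0, 1.38, 39.7, 150 and 8.08 CPM in ccl34b.1- libraries, with library 4 high. In ccl34b.1- cells adar was high in library 4 as well (8.82, 2.39, 0, 81.5 and 0 CPM). There stat2 was high in library 2 (0.0817, 36.6, 6.60, 1.25 and 0.601 CPM), and irf3 in library 5 (0, 0.736, 0, 0 and 37.6 CPM). mxa reached 2.78 CPM in library 1 and at most 0.164 CPM in the others. The largest value of IRF7 in untreated fish, 1101 CPM in ccl34b.1- library 5, did not reach the critical value; the other 4 libraries had 53.0, 172, 212 and 369 CPM. The called members mxc and tlr3 had no such library: mxc had 0 to 36.7 CPM in ccl34b.1+ and 0 to 53.4 CPM in ccl34b.1- cells, and tlr3 had 25.4 to 115 CPM in ccl34b.1+ and 14.0 to 134 CPM in ccl34b.1- cells.

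**Figure D4:**
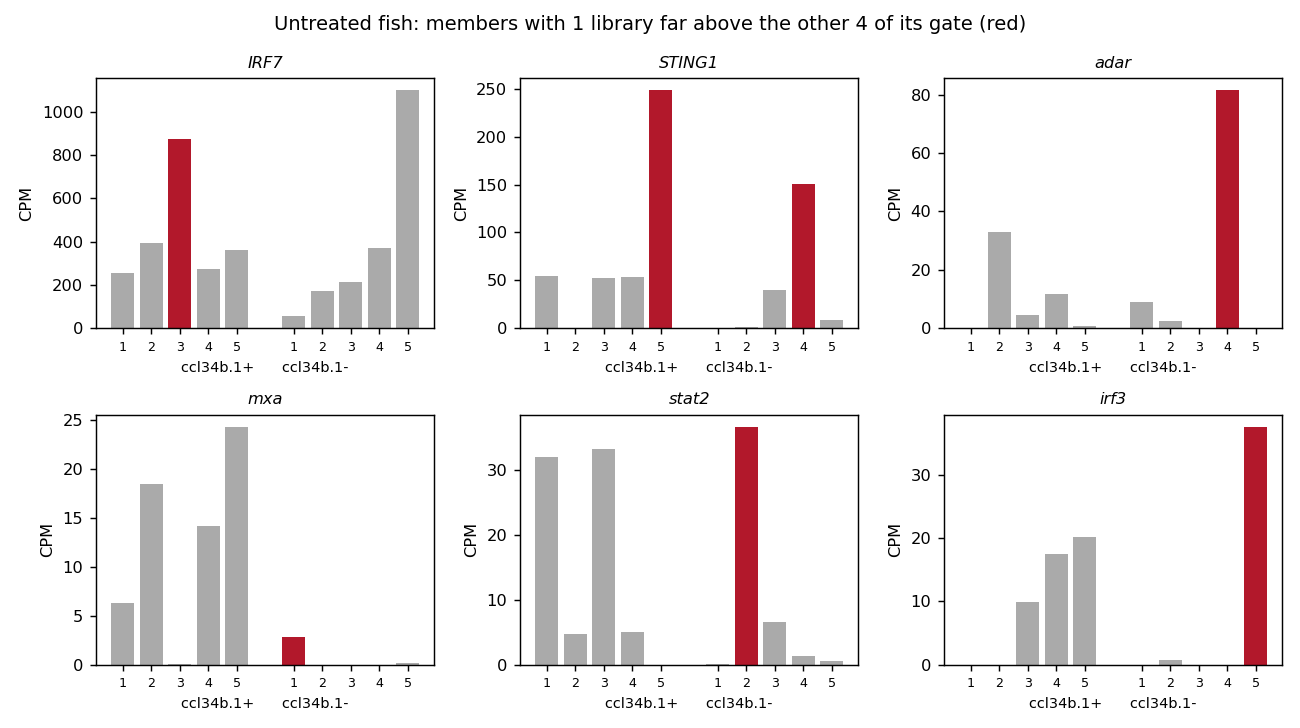
CPM of the 6 gene IDs for which 1 untreated library stood apart, with 1 bar per library, ccl34b.1+ libraries on the left and ccl34b.1- libraries on the right of each panel, on a scale that starts at 0 and differs between panels. Red bars are libraries past the critical value, among them IRF7 at 875 CPM in ccl34b.1+ library 3.

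Other genes of the pathway were read from 5 lists. In ccl34b.1+ cells, E. coli against PBS called 2 of 18 signalling kinases and inhibitors higher, 1 of 27 further effectors lower, and 0 of 7 interferons and receptors, 0 of 18 induction sensors and adaptors and 0 of 22 antigen presentation genes. Of all genes tested, 0.7% were called higher and 0.813% lower. The median log2 change was 0.37 over the kinases and inhibitors and -0.226 over the effectors, beside -0.185 over all genes. Over the lists without a call it was 0.703 (induction sensors and adaptors), -0.322 (interferons and receptors) and 0.003 (antigen presentation). In ccl34b.1- cells no gene of any of the 5 lists was called, where 0.403% of all genes were.

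Both genes that were higher are inhibitors of JAK-STAT signalling. The list also held a second SOCS3 ID (ENSDARG00000026611) and socs1b (ENSDARG00000089873), which were tested and called in neither gate. SOCS3 (ENSDARG00000025428) had 999.7, 1230 and 839 CPM in ccl34b.1+ cells of E. coli fish, against 237, 248, 182 and 85.4 CPM in PBS fish, without overlap (log2 change 2.44 ± 0.50, edgeR adjusted p = 0.00448). SOCS1 (ENSDARG00000038095) had 37.7, 32.7 and 44.5 CPM in E. coli fish, against 0.488, 2.19, 0.886 and 1.72 CPM in PBS fish, also without overlap (log2 change 4.85 ± 1.23, adjusted p = 0.0321). The SOCS1 call was lost with voom (adjusted p = 0.0827) and whichever of the 7 libraries was left out (0.0536 to 0.113), and that of SOCS3 was kept in all 7 cases, but not against control fish (adjusted p = 0.121). In ccl34b.1- cells the groups overlapped. SOCS3 had 844 to 1589.5 CPM in E. coli and 110 to 980 CPM in PBS fish (log2 change 1.15, adjusted p = 0.2355). SOCS1 had 20.0 to 572 and 0.841 to 117 CPM (log2 change 2.49, adjusted p = 0.2373). Neither gene was shown to respond differently in the gates (interaction adjusted p = 0.4094 and 0.5465). SOCS1 was called higher in ccl34b.1- than ccl34b.1+ cells of PBS, control and untreated but not E. coli fish (adjusted p 0.00283 to 0.0467).

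ifi30a (ENSDARG00000056378), a thiol reductase of lysosomal antigen processing, was the effector that fell. It had 226, 36.4 and 37.9 CPM in ccl34b.1+ cells of E. coli fish, against 3197, 1268, 2169 and 1718 CPM in PBS fish, a wide gap between the groups (log2 change -4.38 ± 0.62, edgeR adjusted p = 0.00013, and 0.102 with voom). In ccl34b.1- cells it had 631, 484 and 1527 CPM in E. coli fish and 770 to 2119 CPM in PBS fish, with overlap. The interaction for ifi30a was -3.52 ± 0.76 (adjusted p = 0.0447).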

How the data were processed

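Libraries were single sorts of 100 cells; of 3 technical replicates per gate, 1 was sequenced after a cDNA check, with 24 and then 12 PCR cycles. The authors deposited raw read counts by gene, made with STAR and featureCounts on GRCz11 (danRer11), per the submitters' processing notes, which also name DESeq2. Versions, strand and multi-mapping are not given in the sources used here. No molecular identifiers were read, so floors cover counting error only. Per the labels, each fish gave 1 library per gate.

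Names came from a supplied table (29201 of 32520 IDs). Comparisons used edgeR 4.0.16 in R 4.3.3: TMM, filterByExpr, robust quasi-likelihood fits, two-sided tests and Benjamini-Hochberg adjustment over all genes tested, threshold 0.05. The 18 injection libraries were fitted as 6 groups, the 10 untreated ones alone. CPM values were computed on TMM-scaled totals within each experiment, so levels are set side by side across experiments and not tested. SE is the fitted log2 change divided by the root of F. A level from 3 reads is 0.0988 to 1.34 CPM. The members, lists and alternatives were chosen with earlier results of these data known. Values in every library are given for members past the threshold in any comparison and for members with an untreated library standing apart; up to 5 genes per pathway list past the threshold in E. coli against PBS are named. Other members shown were chosen after their values were seen.

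Other settings tried were size factors of DESeq2, leaving out the low-count filter, a mean of at least 10 CPM, DESeq2 1.42.0, voom with quality weights (limma 3.58.1), control as the comparator, fewer or more groups in the fit, the replicate number as a block, and each library left out in turn. A planned promoter motif search was not run, since no promoter sequences were used here. A further item of the gene list is not reported here.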

Additional observations from a re-analysis of the deposited data

Results flagged for a closer look

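Chance puts about 1 in 20 groups past Dixon's critical value on the high or the low side where values spread normally, and fewer on the high side alone. In these data 1 library stood high for 11.1% of all genes tested in untreated ccl34b.1+ cells, 24.5% in untreated ccl34b.1- cells, 24.6% in PBS ccl34b.1+ cells and 30.6% in PBS ccl34b.1- cells. Against these shares the members below are no more than a list. In untreated ccl34b.1+ cells 1 library stood apart for IRF7 (875 CPM, library 3), STING1 (249 CPM, library 5) and SOCS1 ENSDARG00000038095 (0.0365 CPM, library 3). In untreated ccl34b.1- cells this held for adar (81.5 CPM) and STING1 (150 CPM) in library 4, mxa (2.78 CPM) in library 1, stat2 (36.6 CPM) in library 2 and irf3 (37.6 CPM) in library 5.

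Of 25 members tested, 5 had a high library in PBS ccl34b.1+ and 8 in PBS ccl34b.1- cells. In PBS ccl34b.1+ cells the libraries that stood apart were library 1 for IRF7 (976 CPM), library 2 for gbp3 (26.3 CPM) and usp18 (5.01 CPM), library 3 for irf1b (45.2 CPM) and, on the low side, trim25 (24.2 CPM), and library 4 for nlrc5 (0.343 CPM, 1 read). In PBS ccl34b.1- cells they were library 1 for irf1b (37.1 CPM) and DHX58 (3.44 CPM), library 2 for mxa (94.8 CPM) and STING1 (81.6 CPM), library 3 for isg15 (16.8 CPM) and usp18 (42.6 CPM), and library 4 for irf3 (12.2 CPM) and eif2ak2 (0.113 CPM, 1 read).

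By the interaction test, the E. coli effect was called different between the gates for IRF7 (-5.22 on the log2 scale) and ifi30a (-3.52, edgeR adjusted p = 0.0447). The IRF7 call held in 8 of 14 fits that left out a library, and it was lost with voom. For ifi30a the interaction is given for the main fit only. Causes of these patterns were not tested.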

How the results depend on the processing

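Of 266 values of single genes under another setting, 196 kept their direction and side of the threshold, 63 were no longer past it, 5 newly passed it and 2 reversed. The 266 include results that were not past the threshold in the main fit and so had no call to lose. The 196 therefore do not give the share of calls that held, while all 63 are lost calls. Both reversals were tlr3 in ccl34b.1- cells, E. coli against PBS: -0.226 with voom and -0.494 without E. coli ccl34b.1- library 1 (highest with a library left out, 1.77). Counts of members called moved as follows; the cause was not tested. With DESeq2 there were 5 (E. coli against PBS, ccl34b.1+), 6 (the same, ccl34b.1-), 5 (interaction), and 7 and 1 (gates of E. coli and PBS fish). With voom there were 3 (E. coli against PBS, ccl34b.1+, all higher, without mxc and tlr3), 0 (the same, ccl34b.1-), 0 (interaction), 1 (PBS against control, ccl34b.1+) and 3 (gates of E. coli fish). In ccl34b.1- cells, E. coli against PBS gave 1 with DESeq2 size factors, 1 with the groups compared alone, 0 with control as comparator and 0 with E. coli library 1 alone, which gave 2 for the interaction. With no filter there were 3 (E. coli against PBS, ccl34b.1-), 3 (interaction), 3 (gates of E. coli fish) and 1 (gate, control fish), and with all 28 libraries in 1 fit 3 (gate, untreated fish). On log2(CPM + 1), 2 untreated values stood apart (mxa and irf3), against 7 on CPM, in each case on the high side. Of all genes, DESeq2, voom and edgeR called 981, 676 and 188 in the ccl34b.1+ comparison of E. coli with PBS, 1194, 84 and 50 in the ccl34b.1- one, 596, 28 and 34 in the interaction, and 1589, 477 and 287 (E. coli), 1102, 716 and 334 (PBS) and 456, 672 and 108 (control) between gates. DESeq2 size factors moved the median log2 change of all genes in ccl34b.1- cells to -0.287, against -0.078.

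Leaving out each library in turn gave 1 to 3 members in E. coli against PBS for ccl34b.1+ cells, 0 to 1 for ccl34b.1- cells, 0 to 2 in the interaction, 0 to 2 for the gates of E. coli fish, and 0 to 0 elsewhere.

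With the replicate number within a treatment as a block, members called were 2 (interaction), 3 (gates of E. coli fish) and 1 (gate, control fish). Comparisons of treatments had the number as a block across treatments, which joins different fish under 1 number. Members called were then 1 and 1 (E. coli against PBS, ccl34b.1+ and ccl34b.1-). There mxc (adjusted p = 0.124) and tlr3 (0.128) lost their calls in ccl34b.1+ cells, and mxf (0.061) its call in ccl34b.1- cells. Since numbers do not tie fish of different treatments, nothing is read from these losses. Same-numbered libraries of the 2 gates deviated together weakly (r 0.006 to 0.041), and 25 of 28 correlated best with their own number, a hint from the data, not the design. These 28 are not separate trials, since each r was read from both gates. In the 2 control fish r was 0.041 for same and -0.041 for different numbers, mirror values of 1 result. The labels do not tie numbers across gates, so the numbers are not taken to pair libraries. Depth limits low genes: at 2.24 to 9.69 M counts, a gene of 1 CPM has few reads.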
